A study of Mus musculus with 18 samples.

Results

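The cells described here are iPax3 mouse progenitors in which at least 1 transcript molecule of Myf5 and none of Myog was counted. They numbered 230 of 2931 iPax3 cells (7.85%, Wilson 95% interval 6.93 to 8.88), and of 3510 cells in the iPax3 and adult single-cell libraries together. A molecule is counted by its unique molecular identifier (UMI), a random tag added before amplification. A barcode was taken as a cell when its total reached 10% of the 99th percentile of the top 3000 barcodes (here 4585.8 UMIs), was at least 500 UMIs and had under 10% mitochondrial UMIs. The members were thus chosen by their first counts of Myf5 and Myog. The comparison class was the 1184 cells with no UMI of either gene. A further 235 cells had UMIs of both genes and 1282 had Myog without Myf5. Those counts describe the choice and are no result.

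Myf5 encodes one of the basic helix-loop-helix factors that commit cells to skeletal muscle, and it is among the earliest of them to appear in the embryo. Pax3, a paired-box factor of the somite and of migrating limb muscle precursors, acts upstream of Myf5 and of Met, the receptor for hepatocyte growth factor that those precursors need to migrate. Myog acts later and drives the genes of the contractile apparatus as myoblasts leave the cell cycle.

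The iPax3 cells came from mouse pluripotent stem cells. Embryoid bodies were sorted for Vcam1 and against Flk1, and the cells were then grown for 3 passages with doxycycline, which induces the transgene, and basic fibroblast growth factor (bFGF). Both agents were therefore present for every iPax3 cell here, and no iPax3 cells grown without them were analysed here. The adult cells were satellite cells, the muscle stem cells, from the tibialis anterior muscle of Pax7-ZsGreen mice 3 months old. Bulk RNA-seq covered 3 libraries each of iPax3 and iPax7 progenitors grown the same way, of myoblasts of E10.5 embryos and E14.5 fetuses, labelled My5Cre Rosa26YFP, and of postnatal day 3 hindlimb satellite cells of the Pax7-ZsGreen strain.

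The series lists a second iPax3 single-cell matrix, and its barcodes show that it is not a second set of cells. All 2931 cells of the first matrix recur in it, with 144863508 UMIs in place of 41625326, and only 98 of 7206682 nonzero entries were lower there. A further 590 of its cells carried another barcode suffix, and 577 of these matched barcodes of the adult library. The first iPax3 and the adult cells shared 1 barcode. The second matrix is therefore used as a deeper count of the same iPax3 cells. The UMIs it adds to each cell, called added UMIs here, did not enter the choice of the members. With 1 iPax3 library there is no replicate and no test. Intervals cover counting error only, at a level of 95%, and no type known to lack Myf5 was identified among the iPax3 cells.

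The upstream sequences of the genes that place these cells are shown first, because the rule rests on Myf5 and Myog, and Tnnc2 and Mylpf are among the contractile genes described below. The sequences are the 250 bases before the annotated start, from RefSeq on GRCm38.p6, written 5′ to 3′ on the gene's strand. Capitals mark the E-box CANNTG, the site bound by basic helix-loop-helix factors, which reads the same on both strands. Myf5 lies on the minus strand at chr10:107486135-107486384, Myog on the plus strand at chr1:134289754-134290003, Tnnc2 (fast troponin C) on the minus strand at chr2:164779735-164779984 and Mylpf (fast regulatory myosin light chain) on the plus strand at chr7:127211358-127211607.
Myf5: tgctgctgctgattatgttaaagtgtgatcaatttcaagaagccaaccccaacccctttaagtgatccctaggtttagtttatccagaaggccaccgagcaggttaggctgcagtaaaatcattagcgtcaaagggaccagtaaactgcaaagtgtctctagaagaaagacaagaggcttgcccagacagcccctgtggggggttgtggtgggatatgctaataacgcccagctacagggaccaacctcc
Myog: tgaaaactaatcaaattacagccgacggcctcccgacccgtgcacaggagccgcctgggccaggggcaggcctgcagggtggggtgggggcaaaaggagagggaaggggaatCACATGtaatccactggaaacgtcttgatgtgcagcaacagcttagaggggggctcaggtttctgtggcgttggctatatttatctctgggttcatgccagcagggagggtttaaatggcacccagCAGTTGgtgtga
Tnnc2: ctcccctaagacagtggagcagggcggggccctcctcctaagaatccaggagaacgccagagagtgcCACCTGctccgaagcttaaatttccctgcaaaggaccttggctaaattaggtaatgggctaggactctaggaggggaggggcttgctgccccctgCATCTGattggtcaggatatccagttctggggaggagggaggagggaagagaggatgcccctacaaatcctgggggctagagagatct
Mylpf: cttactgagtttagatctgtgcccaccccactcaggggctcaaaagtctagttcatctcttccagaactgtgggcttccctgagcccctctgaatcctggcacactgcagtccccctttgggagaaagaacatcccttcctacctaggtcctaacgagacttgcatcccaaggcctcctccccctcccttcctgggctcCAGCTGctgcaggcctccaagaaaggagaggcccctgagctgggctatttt
Myf5 had no E-box in this window, Myog 2, Tnnc2 2 and Mylpf 1, which is a CAGCTG. Of 32851 RefSeq windows of this length, 66.22% held a CANNTG and 13.0% held a CAGCTG. In a list of 49 differentiation and contractile genes, 36 had a window in the RefSeq table, of which 32 held a CANNTG and 16 a CAGCTG. A match is a run of letters and says nothing of binding in these cells.

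The rule picked cells at the edge of detection. Of the 230 cells, 188 had a single Myf5 UMI, 36 had 2, 4 had 3 and 2 had 4. Just outside the rule lay 132 cells with Myf5 and exactly 1 Myog UMI. The cells chosen were deeper than the comparison cells, with a median of 14965.5 UMIs against 9915, and cells with both genes were deeper still at 21712. The share of cells that met the rule was 3.58% among the shallowest of 5 equal bins of total UMIs, then 5.29%, 8.36% and 10.1%, and 11.9% in the deepest. Mitochondrial UMIs were 5.48% in the members and 5.68% in the comparison cells.

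**Figure D1:**
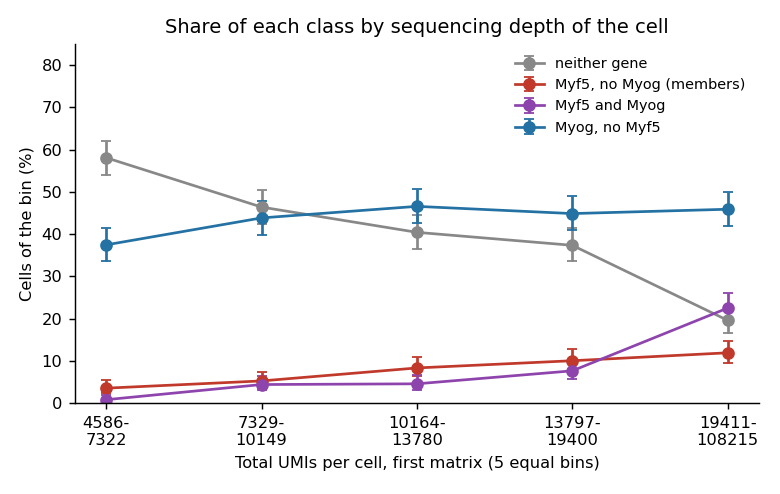
Percentage of iPax3 cells in each class (vertical axis) in 5 equal bins of total UMIs per cell (horizontal axis), with Wilson 95% intervals. The members' share goes from 3.58% in the shallowest bin to 11.9% in the deepest, and the share with neither gene from 58.1% to 19.6%.

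The number of UMIs summed per cell was therefore made equal before any gene was compared. The classes stayed those of the unthinned counts. Thinning thus does not remove differences between cells of unlike depth, and ratios by depth bin are given for some genes below. Each cell was thinned at random to 5500 UMIs, which kept 218 members and 1068 comparison cells and left out 12 and 116 shallower ones. When the rule was applied again to the thinned cells, 133 of 2729 met it (4.87%), and 95 of the 218 members still showed a Myf5 UMI. In the deeper matrix 33 of 2931 cells met the rule (1.13%). Only 7 of the 230 members did so there (3.04%). The other 223 (97.0%) showed at least 1 Myog UMI, with a median of 4 over the members. Among the cells chosen for having neither gene, 635 (53.6%) showed Myf5 and 1118 (94.4%) showed Myog in the deeper matrix. Near-empty barcodes, those with at most 50 UMIs in the first matrix, held Myog as well, at 152 CPM there (UMIs per 1000000 UMIs) and at 303 CPM of the added UMIs. The deeper counts therefore do not show that these cells express Myog, and the first counts do not show that they lack it. The cells are called by their rule here.

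Myf5 was higher in the members than in the comparison cells also in the added UMIs, which the rule did not use. The members held 37.6 CPM of Myf5 (33.8 to 41.7) and the comparison cells 29.8 (28.1 to 31.6). Cells with both genes held 34.8, and cells with Myog alone held 20.7. With the added UMIs thinned to 17000 per cell, the values were 40.4 CPM in the members and 27.5 CPM in the comparison cells, a ratio of 1.47 (1.22 to 1.77). The ratio was above 1 in each of 5 depth bins, from 1.08 to 1.65, though the interval held 1 in 3 of them. Near-empty barcodes held Myf5 at 12.6 CPM in the first matrix and at 34.8 CPM (28.6 to 42.0) of the added UMIs, between the values of the members and the comparison cells. In neither class did the added Myf5 level lie above that of near-empty barcodes beyond counting error.

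Myog in the added UMIs did not separate the members from the comparison cells. It stood at 121 CPM (114 to 128) in the members and 126 CPM (122 to 130) in the comparison cells, and the thinned ratio was 1.0 (0.90 to 1.11). Cells with both genes held 224 CPM and cells with Myog alone held 500. Against the 303 CPM of near-empty barcodes, only the cells with Myog alone stood higher.

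**Figure D2:**
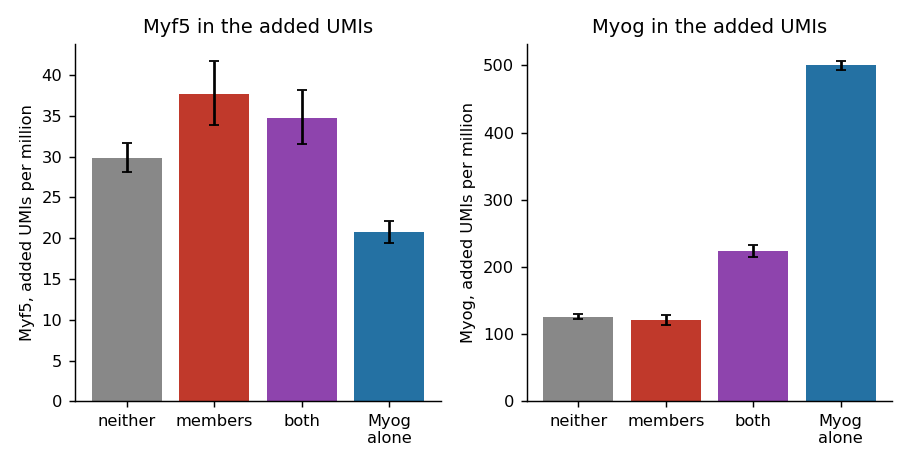
Myf5 (left) and Myog (right) in the added UMIs, as CPM in each class, with exact Poisson 95% intervals. For Myf5 the members are the highest bar at 37.6; for Myog they stand at 121 beside 126 for cells with neither gene.

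The added UMIs separated the classes less than the first UMIs did, also for genes outside the rule. Between cells with Myog alone and cells with neither gene, 54 of 1762 genes differed by at least 2-fold in the first UMIs, all of them higher with Myog. All 54 lay on the same side in the added UMIs, but 29 kept a 2-fold difference, and their median ratio went from 3.61 to 2.04. Near-empty barcodes held a mean of 2.97 UMIs in the first matrix and 11.9 in the deeper one. How far UMIs from other cells enter the added counts was not tested. A ratio in the added UMIs is therefore set beside the first one and not in place of it, and the same holds for the Myog and Myf5 UMIs seen there.

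Of the markers of the label, Pax3 and Met did not set the members apart. Pax3 stood at 153 CPM in the thinned members and 164 CPM in the comparison cells (ratio 0.94, 0.80 to 1.10), and the added UMIs gave 136 and 138 CPM (0.98, 0.89 to 1.09). A Pax3 UMI was present in 52.8% of thinned members and 52.0% of thinned comparison cells. Unthinned, these shares were 80.9% and 71.7%. Adult cells, at a median of 10765 UMIs against 11716 for the iPax3 cells, showed a Pax3 UMI in 1.44% when thinned. Near-empty barcodes of the iPax3 library held Pax3 at 154 CPM, a level within that of the cells. Whether the Pax3 tags come from the transgene or the endogenous gene was not tested.

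Met was sparse. It stood at 15.8 CPM in the thinned members and 12.9 CPM in the comparison cells (1.22, 0.70 to 2.05), and at 19.5 and 18.1 CPM in the added UMIs (1.08, 0.82 to 1.39). Near-empty barcodes held less Met than both classes, at 6.77 CPM in the first matrix (7 UMIs) and 9.67 CPM (6.53 to 13.8) of the added UMIs. A Met UMI was present in 8.26% of thinned members and 6.84% of thinned comparison cells (22.6% and 14.2% unthinned), against 5.54% of thinned adult cells. These intervals do not exclude a Met level about 1.39 times higher. Pax7, which marks satellite cells, had no UMI in the members in either set. Myod1, the factor that acts beside Myf5 in commitment, was low at 12.5 and 17.9 CPM (0.70, 0.38 to 1.21). It was lower in the members in the added UMIs, at 27.6 against 36.0 CPM (0.77, 0.62 to 0.95), and lower in 5 of 5 depth bins of the added UMIs, against 2 of 4 in the first, where each bin held 3 to 5 Myod1 UMIs of the members. Within clusters 1, 2 and 3 the added ratios of Myod1 were 0.81, 1.06 and 0.93, all with intervals that held 1, and cluster 4, which held no member, had Myod1 at 83.6 CPM of the first UMIs.

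Clusters made without Myf5 and Myog, on thinned counts, showed where the members lie. The other variable genes of the first UMIs made them, so the ratio of such a gene within clusters is not independent of the clusters. Cluster 1 (885 cells) was led by Krt18, Krt8, Ly6a and Hmga2, cluster 2 (669 cells) by Pdcd4, Gap43 and Igfbp5, and cluster 3 (540 cells) by the mitotic genes Mki67, Nusap1 and Prc1. Cluster 4 (635 cells) was led by Neb, Myl4, Myl1 and Mylpf, genes of the sarcomere. The members fell into the first 3, with 106, 64 and 48 cells, and none fell into cluster 4 (Wilson upper limit 0.601%). Myog had a UMI in 93.2% of the cells of cluster 4 and in 38.4% to 42.1% of the others, so the rule itself keeps members out of it. Myf5 UMIs, whatever Myog showed, were present in 23.8% of the cells of cluster 1, 17.5% of cluster 2, 16.7% of cluster 3 and 5.35% of cluster 4.

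With the rule applied to thinned UMIs, the first 3 clusters no longer differed beyond their intervals. The shares were 6.55% (5.10 to 8.38), 6.58% (4.94 to 8.71) and 5.56% (3.92 to 7.82), against 0.157% in cluster 4. Cells of cluster 1 were the deepest, with a median of 16499 UMIs against 10782, 12636 and 10401. Thus the members were not a group of their own but were spread over the keratin-rich, the Pdcd4-led and the mitotic cells. Cluster 1 held 48.6% of the members and 38.0% of the comparison cells, and cluster 4 held 4.03% of the comparison cells.

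**Figure D3:**
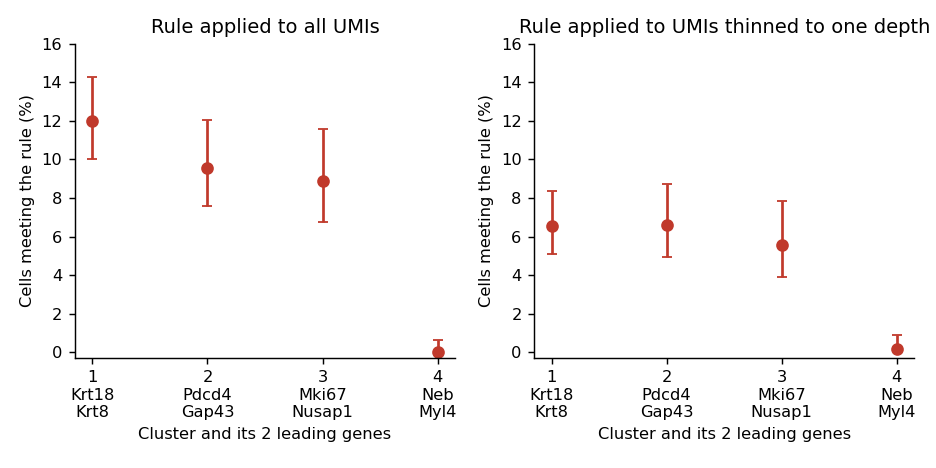
Percentage of the cells of each cluster that meet the rule, with Wilson 95% intervals, with all UMIs (left) and after thinning to one depth (right); the 2 leading genes stand under each cluster number. After thinning, clusters 1 to 3 lie between 5.56% and 6.58% and cluster 4 at 0.157%.

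Across all genes, the thinned members and comparison cells were close. Among 1772 genes with at least 50 CPM in the higher class, 88 were at least 25% higher in the members (4.97%) and 54 at least 20% lower (3.05%), or 8.01% in either direction; these limits are the fold referred to from here on. The median log2 ratio was 0.02, and 5% of genes lay below -0.27 and 5% above 0.32. In the added UMIs, 62 of the 88 lay on the same side but 3 passed the fold again. Of the 54, 38 lay on the same side and none passed it. With sums that were not thinned, the counts were 30 higher and 16 lower. At a lower floor of 10 CPM, which the added UMIs allow, 385 of 6647 genes passed the fold higher there (5.79%) and 254 lower (3.82%), or 9.61% in either direction. Single genes are therefore given with their intervals in both sets.

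Some genes of the epithelial list, Krt8 first, were higher in the members. Krt8, a keratin of simple epithelia, stood at 374 CPM in the thinned members, 275 in the comparison cells, 338 in cells with both genes and 182 in cells with Myog alone. The ratio of members to comparison cells was 1.36 (1.22 to 1.51) in the first UMIs and 1.17 (1.11 to 1.23) in the added UMIs. Near-empty barcodes held Krt8 at 268 CPM in the first matrix and at 419 CPM of the added UMIs, beside 275 and 442 CPM in the comparison cells. What part UMIs from outside the cells play in these levels was not tested. Krt18, the partner of Krt8, had ratios of 1.21 (1.05 to 1.38) and 1.20 (1.12 to 1.28). Lgals3, a galectin, had 1.22 and 1.10, and Perp, a desmosome protein, 1.21 and 1.03. Of the 19 genes of the epithelial and mesothelial list 5 could be compared, 1 past the fold. The summed list stood at 1264 CPM against 1022 (1.24, 1.17 to 1.31), and its ratio in the added UMIs was 1.13 (1.10 to 1.16). Epcam and Cdh1, which define epithelia, had no UMI in the thinned members.

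The Krt8 difference moved with the cluster and with the depth of the cell. Krt8 stood at 502 CPM over all cells of cluster 1 against 151, 143 and 80.7 in the other clusters. Within clusters 1 and 2 the ratio of members to comparison cells was 1.12 (0.99 to 1.27) and 1.10 (0.81 to 1.47), and within cluster 3 it was 1.86 (1.37 to 2.50). By depth, the added UMIs gave 1.56 in the shallowest bin, 1.28 and 1.15 in the next, then 0.88 and 1.01. Krt18 showed no such order: its ratios were 1.05, 0.93, 0.89, 1.08 and 1.06 from the shallowest bin to the deepest. Within clusters the first UMIs gave Krt18 ratios of 0.98, 1.22 and 1.21, all with intervals that held 1. Among cells with under 5% mitochondrial UMIs the log2 ratio of Krt8 was 0.15, against 0.44 over all cells, and the ratio of the epithelial sum was 1.06.

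Vps8, a subunit of an endosomal tethering complex, had nearly the same ratio in both sets of UMIs. It stood at 585 CPM in the thinned members, 439 in the comparison cells, 521 in cells with both genes and 350 with Myog alone. The ratio was 1.33 (1.23 to 1.45), and 1.30 (1.248 to 1.36) in the added UMIs. It was above 1 in each of 3 clusters, from 1.15 to 1.77, and in each of 5 depth bins of the added UMIs, from 1.03 to 1.36. In the first UMIs the ratio was 1.33, 1.17, 1.14 and 1.14 in depth bins 2 to 5, and only the interval of bin 2 left out 1. Among the comparison cells Vps8 itself rose with depth, from 378 CPM in bin 2 to 656 CPM in bin 5. Hmga2, a chromatin protein of embryonic and fetal cells, stood at 319 against 242 CPM (1.32, 1.18 to 1.48) and had an added ratio of 1.19 (1.13 to 1.26). It too was above 1 in 3 of 3 clusters (1.13 to 1.34) and in 5 of 5 depth bins of the added UMIs (1.03 to 1.23). In the first UMIs its ratio was 1.07, 1.16, 1.26 and 1.10 in depth bins 2 to 5, and only the interval of bin 4 left out 1. Among the comparison cells Hmga2 rose from 193 CPM in bin 2 to 346 CPM in bin 5. Tnfrsf12a, the receptor of the cytokine TWEAK, stood at 133 against 98.2 CPM (1.36, 1.13 to 1.62; added 1.20, 1.10 to 1.32). Its added ratio was above 1 in 2 of 3 clusters and 4 of 5 depth bins. Among cells with under 5% mitochondrial UMIs the log2 ratio was 0.34 for Vps8, against 0.42 over all cells, and 0.11 for Hmga2, against 0.40. The differences were smaller than those between clusters: Hmga2 stood at 381 CPM in cluster 1 and 78.2 in cluster 4.

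Of the other genes with the highest ratios, Tex10 had 1.32 and an added ratio of 1.20 (1.05 to 1.36). Arpc1b, of the Arp2/3 complex that branches actin, had 1.28 and 1.07 (1.0 to 1.14). The rest came close to 1 in the added UMIs: Col18a1, a basement membrane collagen, had 1.45 and 1.08, and Ctnnb1 (beta-catenin) had 1.4 and 1.01. Tomm40 had 1.33 and 1.0, P4hb 1.29 and 1.05, Plec 1.28 and 1.09, and Ptges3 1.27 and 1.04.

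Contractile genes were lower in the thinned members than in the comparison cells. They were far higher in cells with Myog alone, but that class was chosen for its Myog UMIs, so this contrast describes the choice. Tnnc2 stood at 71.7 CPM in the members, 118 in the comparison cells, 291 in cells with both genes and 597 with Myog alone. The ratio of members to comparison cells was 0.61 (0.48 to 0.76). Tnnt1 (slow troponin T) stood at 104 against 161 CPM (0.65, 0.53 to 0.78), and Mylpf at 190 against 271 (0.70, 0.61 to 0.81). Myl1, a myosin light chain, stood at 41.7 against 78.7 (0.53, 0.39 to 0.71), and Acta1, skeletal actin, at 50.9 against 85 (0.60, 0.45 to 0.78). Myh3, embryonic myosin, had 0.62 (0.44 to 0.85) and Tnnt3 0.75 (0.62 to 0.90).

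Of the 49 genes of the differentiation and contractile list 17 could be compared. None was past the fold higher and 7 were past it lower, against 4.97% and 3.05% of all 1772 genes. The median log2 ratio was -0.21 against 0.02 over all genes. Of the 35 list genes that reached 10 CPM in the added UMIs, 2 were past the fold higher and 3 lower. The shares over all genes there were 5.79% and 3.82%. The summed list stood at 3188 CPM in the members, 3607 in the comparison cells (0.88, 0.85 to 0.92) and 12008 in cells with Myog alone. In the added UMIs the ratio was 0.98 (0.97 to 1.0), with Tnnc2 at 0.95, Mylpf at 0.95, Tnnt1 at 0.90 (0.83 to 0.98), Acta1 at 0.89 (0.82 to 0.96) and Myl1 at 0.87 (0.79 to 0.96).

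The contractile difference went with the clusters the cells belonged to and with the depth of the cell. In the first UMIs the ratio of the summed list was 0.77 (0.71 to 0.85), 0.91, 1.04 and 0.96 in depth bins 2 to 5. The ratio of Tnnt1 was 0.36, 0.62, 0.93 and 1.03 in the same bins. For the summed list the added UMIs gave 0.88, 0.91, 0.98, 1.01 and 1.01 from the shallowest bin to the deepest. Cluster 4 held 21606 CPM of the summed list, and clusters 1 to 3 held 3129, 3369 and 3310. It also held 4.03% of the comparison cells and no member. Within clusters 1, 2 and 3 the ratio of the summed list was 1.01 (0.96 to 1.07), 1.01 (0.95 to 1.08) and 1.08 (1.0 to 1.16). Outside cluster 4 the members were not lower for the list as a whole. The clusters were made from these UMIs with contractile genes left in, so the ratios cannot show whether the list differs apart from the clusters. The added UMIs, which the clusters did not use, gave 1.05, 1.02 and 1.08. Near-empty barcodes held Tnnc2 at 398 and Mylpf at 954 CPM, above the members and the comparison cells. What part such UMIs outside cells play in the low levels of both classes was not tested.

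H2afv, a variant histone, and Nnat (neuronatin, an imprinted gene) were lower in both sets of UMIs. H2afv stood at 145 against 194 CPM (0.75, 0.63 to 0.88) and had an added ratio of 0.80 (0.73 to 0.88). It was below 1 in 5 of 5 depth bins of the added UMIs, although the deepest 2 stood at 0.99 and 1.0. By cluster the first UMIs gave 0.76, 1.18 (0.89 to 1.55) and 0.66 (0.49 to 0.87), and the added UMIs 0.97, 0.89 and 0.74. Nnat stood at 324 against 419 CPM (0.77, 0.69 to 0.86; added 0.85, 0.81 to 0.89) and at 893 CPM in cells with Myog alone. Within clusters its added ratio ran from 0.86 to 1.05. Anp32a (0.73; added 0.96), Cox20 (0.75; 1.0), Grpel1 (0.77; 1.0), Rdx (0.77; 1.03), Fubp1 (0.79; 1.03) and Dcxr (0.79; 1.07) were lower in the first UMIs and stood near or above 1 in the added ones.

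**Figure D4:**
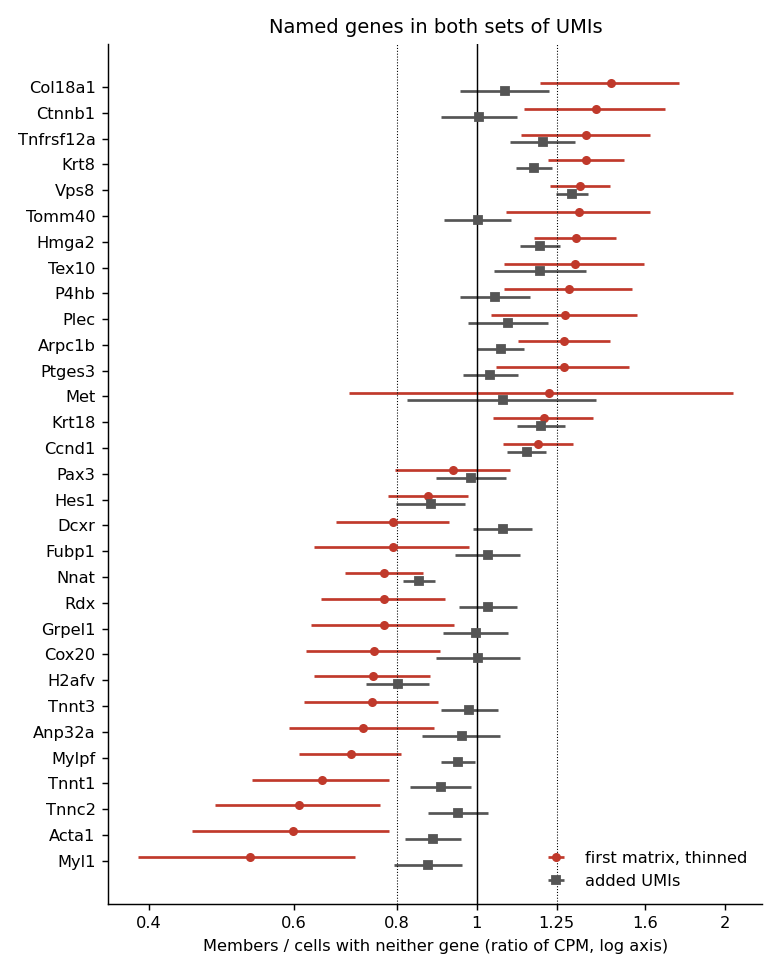
Ratio of CPM in members to CPM in cells with neither gene (log axis) for the genes named by rule, and for Pax3, Met and list members, in the first thinned UMIs (circles) and the added UMIs (squares), with exact 95% intervals; dotted lines mark the fold. Vps8 stands at 1.33 and 1.30, while most genes lie closer to 1 in the added UMIs.

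Signalling genes differed little. In the list of FGF receptors and feedback genes, the culture having contained bFGF, the summed level was 675 against 565 CPM (1.19, 1.10 to 1.29; added 1.12, 1.07 to 1.17). None of its 2 genes that could be compared passed the fold, and Ccnd1 made up most of the sum in both classes. Ccnd1, the G1 cyclin that growth factors induce, stood at 425 against 358 CPM (1.19, 1.08 to 1.31; added 1.15, 1.09 to 1.22), and Sdc4, a proteoglycan coreceptor, had 1.05 and 1.08. The FGF sum was above 1 in each of 3 clusters, from 1.03 to 1.42, but stood at 0.99 among cells with under 5% mitochondrial UMIs. In the Notch list the sum was lower at 504 against 576 CPM (0.88, 0.80 to 0.95; added 0.95, 0.90 to 1.0). Hes1, the Notch target that holds back differentiation, stood at 309 against 354 CPM (0.87, 0.78 to 0.97), and its added ratio was 0.88 (0.80 to 0.97). Hes1 was below 1 in 3 of 3 clusters in both sets, and in 5 of 5 depth bins of the added UMIs. In the first UMIs the deepest bin stood at 1.02, and the log2 ratio weighted equally over depth bins was 0.0055. Hes6 had 0.83 and 0.96.

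The migration and HGF-Met list had 7 of 30 genes that could be compared, 1 past the fold: Cttn, the actin-binding cortactin, with 1.26 (0.96 to 1.63) and an added 0.99. The summed list had 1.11 (1.03 to 1.19; added 1.08, 1.05 to 1.12). In it Fn1 (fibronectin) had 1.18 and 1.10, Itgb1 (an integrin) 1.15 and 1.12, and Rac1 1.09 and 1.04. The extracellular matrix list had 1.07 in both sets, with Col18a1 alone past the fold among 10 genes. Timp1, a metalloprotease inhibitor, had 1.17 and 1.14, and Spp1 (osteopontin) 1.17 and 1.07. The myogenic regulator list had 0.89 (0.81 to 0.98; added 0.96), of which only Tcf4 (0.87; 1.06) and Pax3 reached the level needed.

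Genes of the cell cycle were at similar levels in both classes. The S phase list had a summed ratio of 0.98 (0.92 to 1.04; added 0.98) with 1 of 8 genes past the fold in each direction, Slbp at 1.28 and Ccne2 at 0.79. The G2 and mitosis list had 1.02 (0.97 to 1.07; added 1.01) with 1 of 15 past it, Cdc20 at 1.31 (0.99 to 1.72; added 1.08). The CDK inhibitors had 0.98, with Cdkn1a at 0.95 and Cdkn2a at 0.98. The satellite marker list had 1.10 (0.98 to 1.22; added 1.03), with Cdh15 (M-cadherin) at 1.13 and 1.04. The Id and E protein list had 0.95, with Id3 at 1.10. The smooth muscle list had 0.99, with Acta2 at 0.86 (0.73 to 1.02). The immediate early and stress list had 1.05 (1.01 to 1.09; added 1.01). The Wnt and BMP list had 1.18, where Ctnnb1 was the single gene compared, and 1.03 in the added UMIs. The IGF and imprinted growth list had 1.04 (1.0 to 1.07; added 1.0), with 2 of 12 genes past the fold, Hmga2 and Igf2bp1 (1.30, 0.96 to 1.73; added 1.02).

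Markers of other cell types were scarce in the members, apart from some epithelial, mesothelial and smooth muscle genes. Besides Krt8, Krt18 stood at 211 CPM in the members against 175 CPM in the comparison cells. Msln (mesothelin) stood at 85.9 against 73.4 CPM, and Acta2 at 138 against 160 CPM. The fibroblast and mesenchyme list had 1.04 (0.98 to 1.10), carried by genes that many cells express such as Vim. Of its defining genes, Col1a1, Dcn, Lum and Twist1 had no UMI in the thinned members, Pdgfra had 1 and Col3a1 had 14 (11.7 CPM, against 16.9 CPM in the comparison cells). None of the endothelial, neural, immune, pluripotency or somite lists had a gene at the level needed. Their summed levels in the members were 41.7, 22.5, 5.0, 4.17 and 36.7 CPM, against 43.2, 23.2, 7.15, 3.40 and 40.0 CPM in the comparison cells. Cdh5, Kdr, Sox10, Ptprc and Pou5f1 had no UMI in the thinned members.

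**Figure D5:**
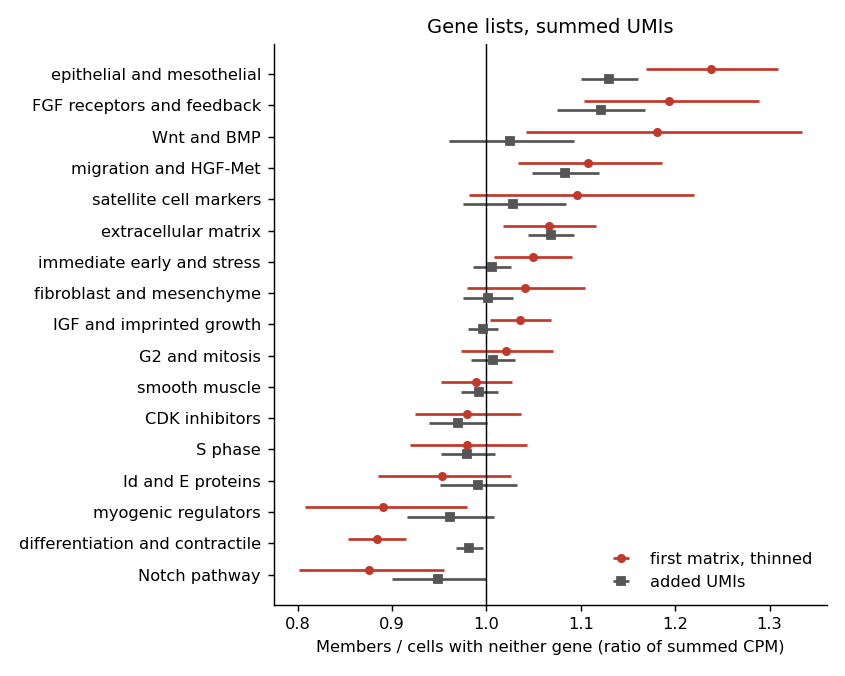
Ratio of summed CPM of each gene list in members to that in cells with neither gene (horizontal axis), for lists with at least 1 gene at the level needed, in the first thinned UMIs (circles) and the added UMIs (squares), with exact 95% intervals. The epithelial list is highest at 1.24 and 1.13; the contractile list stands at 0.88 and 0.98.

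Members with more Myf5 UMIs in the first matrix did not differ in Myf5 beyond counting error in the added ones. The 42 members with 2 or more Myf5 UMIs in the first matrix held Myf5 at 43.4 CPM of the added UMIs and the members with a single UMI at 39.7 (1.09, 0.71 to 1.64). Krt8 was higher in the first of these, at 595 against 500 CPM (1.19, 1.07 to 1.33), as was Hmga2, at 473 against 395 (1.20, 1.06 to 1.35). Ccnb1, a mitotic cyclin, had the highest of these ratios, at 148 against 97.5 CPM (1.52, 1.21 to 1.91), and Fubp1 had 1.34 (1.10 to 1.62). Tnnt1 was lower, at 140 against 184 (0.76, 0.61 to 0.94). Vps8, higher in the members than in the comparison cells, was lower here, at 615 against 699 CPM (0.88, 0.79 to 0.98). Igfbp5 had 0.72 (0.50 to 0.998) and Vim 0.93 (0.87 to 0.999). Of 69 genes compared in this way, 4 had an interval above 1 and 4 below it.

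The same rule was applied to the adult satellite cells. There 202 of 579 cells had Myf5 without Myog, 347 had neither, 13 had both and 17 had Myog alone. Among 21 adult cells with 2 or more UMIs of the endothelial genes Cdh5 and Pecam1 and none of Pax7, 7 had a Myf5 UMI. That is 33.3% (17.2 to 54.6), against 37.1% of all adult cells, and near-empty adult barcodes held Myf5 at 27.6 CPM. A Myf5 UMI there does not by itself show that the cell expresses Myf5. Thinned to the same depth, 187 cells with Myf5 alone and 271 with neither remained. Between them 4.91% of 1753 genes were past the same fold higher and 7.02% lower. Krt8 and Hmga2 had no UMI in either adult class when thinned, so the 2 genes could not be compared there. Tnnc2 had an adult ratio of 0.80 (0.67 to 0.96), Mylpf 0.78 (0.65 to 0.94), Myl1 0.80 (0.64 to 0.99) and Acta1 0.85 (0.73 to 0.98), while Tnnt1 had 1.04 (0.76 to 1.41) and Tnnt3 1.09 (0.89 to 1.34). Vps8 had 3.38 (0.77 to 20.3), H2afv 1.01 and Hes1 1.30 (0.98 to 1.73). Near-empty adult barcodes held Tnnc2 at 350, Mylpf at 221, Myl1 at 189 and Acta1 at 425 CPM. Adult cells with Myf5 alone held 180, 170, 136 and 281 CPM of these, and those with neither gene 225, 218, 170 and 331. Both adult classes thus stood below the near-empty barcodes for these genes. What part UMIs from outside the cells play in these ratios was not tested. Whether the iPax3 and adult ratios differ was not tested.

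In bulk RNA-seq, iPax3 progenitors held Myf5 at 248 ± 67.8 CPM (SD, n = 3). Embryonic myoblasts held 27.5 ± 6.89, fetal myoblasts 9.35 ± 1.29, neonatal satellite cells 3.17 ± 2.83 and iPax7 progenitors 57.4 ± 48.8 (each n = 3). The iPax3 libraries lay from 170 to 291 CPM, above every library of the other groups. Pax3 stood at 331 ± 32.0 CPM in iPax3 and 95.4 ± 39.3 in embryonic myoblasts, with ranges that did not overlap. Met stood at 118 ± 18.8 and 114 ± 17.9, with ranges that did. The iPax3 cells were grown with doxycycline, and whether their bulk Pax3 counts come from the transgene or the endogenous gene was not tested. Myog stood at 66.4 ± 33.5 CPM in iPax3 and 500 ± 350 in embryonic myoblasts. Krt8 stood at 297 ± 150 CPM in iPax3 against 0.350 ± 0.374 in embryonic myoblasts, and Hmga2 at 867 ± 161 against 1104 ± 428. In such bulk libraries fewer cells of a type and less RNA per cell cannot be told apart.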

How the data were processed

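Single-cell libraries were made with the Chromium 3′ kit, and CASAVA 1.8 and Cell Ranger 2.2.0 with the mm10 build are named in the submitters' processing notes. The deposited matrices hold raw UMI counts per gene and barcode. Bulk counts per gene were made with HISAT2 2.0.2 and featureCounts 1.4.6, per the submitters' processing notes, and scaled here to CPM with TMM library sizes (edgeR 4.0.16); no bulk contrast was tested. The members and gene lists were chosen with earlier results of these data known.

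Cells held 66.0% of the UMIs of the first matrix. They were thinned to 5500 UMIs without replacement (numpy 2.4.6), a depth at or below the 10th percentile, and UMIs were summed per class. A gene could be compared at 50 CPM in the higher class. Past the fold means at least 25% higher or 20% lower, a description with no test; intervals are exact conditional binomial for ratios, exact Poisson for CPM and Wilson for shares. UMIs of the deeper matrix minus the first, per cell and gene, were thinned to 17000; this choice, like the strata by cluster and depth, was made after seeing the data. Named genes were Myf5, Myog, Pax3 and Met, the 12 highest and 12 lowest ratios among genes at 100 CPM or more, and up to 4 genes of each list by distance from 1 at 50 CPM or more; Myod1 and the marker genes at 0 were added. Clusters used 2000 variable genes, 20 components, 15 neighbours and a resolution of 0.5 (scanpy 1.11.5). Scrublet called 0 doublets, which is no working result, so doublets were treated only by leaving out cells above 31300.5 UMIs as an alternative. The summation was tested on simulated data.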

Additional observations from a re-analysis of the deposited data

How the results depend on the processing

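The 88 higher and 54 lower genes became 30 and 16 with sums that were not thinned, 44 and 25 with depth-stratified sums, 57 and 28 at the 25th-percentile depth, 531 and 267 with a floor of 20 CPM, and 7 and 6 at a fold of 1.5. They became 390 and 238 with Myf5 at 2 or more UMIs, 270 and 153 under 5% mitochondrial UMIs, and 653 and 598 in the 396 cells found only in the deeper matrix, of which 20 were members. Classes from thinned UMIs gave 87 lower. The added UMIs gave 14 and 7, and 9 and 4 when stratified by added UMIs per cell. The member share of 7.85% became 4.87% thinned and 1.13% in the deeper matrix. The causes were not tested.

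Log2 ratios that changed side were, with depth-stratified sums, Fubp1 0.031, Cttn -0.080 and Slbp -0.042; at the 25th percentile, Cdc20 -0.11; with a second seed, Slbp -0.0039 and Cdc20 -0.16; with classes from thinned UMIs, Ptges3 -0.013 and Igf2bp1 -0.054; and under 5% mitochondrial UMIs, Slbp -0.37 and Ccne2 0.24. For the added UMIs they were Cox20 0.0069, Rdx 0.046, Fubp1 0.046, Dcxr 0.105, Cttn -0.019, Myh3 0.024 and Ccne2 0.28, and with these depth-stratified Tomm40 -0.083, Ptges3 -0.040, Anp32a 0.076, Grpel1 0.0062, Rdx 0.050, Fubp1 0.075, Dcxr 0.026, Cttn -0.026, Myh3 0.0068, Slbp -0.072, Ccne2 0.21, Cdc20 -0.17 and Igf2bp1 -0.039. Krt8, Vps8, Hmga2, Tnnt1 and Nnat kept their side in all of these settings, which do not include single depth bins or clusters. Within those, Vps8 and Hmga2 also kept their side. Krt8 had a ratio of 0.88 in depth bin 4 of the added UMIs and Nnat 1.10 in bin 1. Tnnt1 had 1.03 in bin 5 of the first UMIs. Under 5% mitochondrial UMIs the contractile sum ratio was 0.95 and the epithelial 1.06. No paired analysis was possible because the results come from 1 iPax3 library with no test. With about 1 Myf5 UMI per member, depth limits the rule itself.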

Other observations

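The following genes were picked after their values in the added UMIs were seen, at a floor of 10 CPM, and stand for no group. Scg2, a granin of secretory granules, stood at 53.1 CPM in the members and 30.9 in the comparison cells (1.72, 1.45 at the lower bound), Thbs1 (thrombospondin) at 69.4 and 46.9 (1.48) and Tnc (tenascin C) at 39.6 and 28.3 (1.4). The first UMIs gave 1.28, 1.06 and 1.62 for the same genes. Among the lower genes, Nfib, a nuclear factor I gene, stood at 13.6 and 21.7 CPM (0.62), and its ratio in the first UMIs was 0.75. Ptn (pleiotrophin) stood at 14.9 and 21.7 CPM (0.69; first UMIs 0.51).

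Vps8 stood at 585 CPM in the thinned iPax3 members and 6.81 CPM in the adult ones, at 439 and 2.01 CPM in the comparison cells, and at 23.9 ± 1.79 CPM (SD, n = 3) in bulk iPax3 libraries, where Hmga2 stood at 867 ± 161 CPM. Single-cell and bulk values are on different scales, and the reason for the high single-cell level of Vps8 was not tested.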
